A study of Xenopus laevis with 20 samples.

Results

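A group of 2875 β-catenin peaks lay beside sites of Smad1 or of the coactivator p300 without touching them. They were chosen by position alone: each was a peak of the explant β-catenin list that overlapped no peak (1 bp or more) of the Smad1 list or of either p300 list, but had at least 1 peak of these 3 lists within 10 kb, edge to edge, on the same chromosome or scaffold. They are called adjacent peaks here. Of the 16303 β-catenin peaks, 17.6% were adjacent peaks (exact 95% interval 17.1 to 18.2), 6131 were β-catenin-only peaks with no such neighbour (isolated peaks), and 7297 overlapped another list (shared peaks). Adjacent peaks thus made up 31.9% (interval 31.0 to 32.9) of the 9006 peaks with β-catenin alone.

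β-catenin is the effector of canonical Wnt signalling. It does not bind DNA itself and is brought to chromatin by partners such as TCF/LEF factors. Smad1 carries the BMP signal to DNA, and p300 acetylates histones and is often used as a mark of active enhancers. Wnt and BMP signals both take part in patterning the early gut, and regulatory regions often hold several such sites within a few kilobases.

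The lists came from chromatin immunoprecipitation and sequencing (ChIP-seq) of wild-type Xenopus laevis embryos at Nieuwkoop-Faber stage 20, a frog embryo in which the gut is still a simple endodermal mass. β-catenin was profiled in 4 libraries, foregut and hindgut explants each cultured with 60 μM BIO (which inhibits GSK3 and so raises Wnt activity) or with DMSO vehicle from stage 12, and explant p300 in 4 libraries of the same design. Smad1 and p300 were each profiled in 1 library of whole embryos, for which no treatment is given, and each of the 10 ChIP libraries had 1 input. Each group held 1 library. The peak names show that both explant lists combine foregut and hindgut, and BIO and DMSO, so that neither tissue nor treatment could be compared, and a Smad1 peak missing from a β-catenin site cannot be told apart from a difference in tissue, treatment or threshold between the lists.

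Each list was a single call set with no replicate list. Peaks are not replicates of each other, so no test was run: values below describe the lists, and their 95% intervals cover counting error only. The authors gave each peak its score and fold, which depend on the list, so that levels were compared only between peaks of the same list. The score of a β-catenin peak is 10 times its −log10 p-value, and the fold is the ChIP pileup over the local background. The 3 other lists held 7976 Smad1 peaks, 15146 explant p300 peaks and 4555 whole-embryo p300 peaks. Their lowest −log10 p-values were 14.4, 23.1 and 4.63 in that order, against 78.6 in the β-catenin list, so that the lists reached down to unlike levels. Read depth is unknown.

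Adjacent peaks had p-values close to those of isolated peaks, but a lower median fold and a greater median width. Their median −log10 p was 118 (interval 115 to 119), against 117 (interval 115 to 118) for isolated peaks and 145 (interval 142 to 146) for shared peaks. Their median fold enrichment was 11.5 (interval 11.3 to 11.6), against 12.6 (interval 12.5 to 12.7) for isolated peaks and 11.99 (interval 11.9 to 12.1) for shared peaks. The middle 50% of adjacent peaks lay between 9.59-fold and 14.4-fold. Their median width was 506 bp (interval 495 to 514), against 469 bp (interval 464 to 475) for isolated peaks and 559 bp (interval 553 to 565) for shared peaks. By width the adjacent peaks therefore stood between the isolated and the shared ones. A wider peak more readily overlaps another list by 1 bp, however, so that the choice can itself favour wide shared peaks. The same holds within the score groups below.

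When the β-catenin list was cut into 5 equal groups by score, the median fold of adjacent peaks lay below that of isolated peaks and above that of shared peaks in 5 of 5 groups. In the highest-scoring group it was 19.4 (interval 19.0 to 20.2; 413 peaks), against 22.2 (interval 21.6 to 22.7; 897 peaks) for isolated peaks and 19.0 (interval 18.7 to 19.3; 1951 peaks) for shared peaks. In the lowest-scoring group it was 8.99 (interval 8.89 to 9.14), against 10.2 (interval 10.04 to 10.3) for isolated and 8.497 (interval 8.40 to 8.59) for shared peaks. The intervals of adjacent and isolated peaks did not meet in any of the 5 groups, whereas those of adjacent and shared peaks met in the highest one. The median width ran the other way, with adjacent peaks wider than isolated and narrower than shared peaks in 5 of 5 groups. The width intervals of adjacent and isolated peaks met in the 2 lowest-scoring groups, however, and those of adjacent and shared peaks in the 3 middle groups, with 511 and 514 bp in the middle one.

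**Figure D1:**
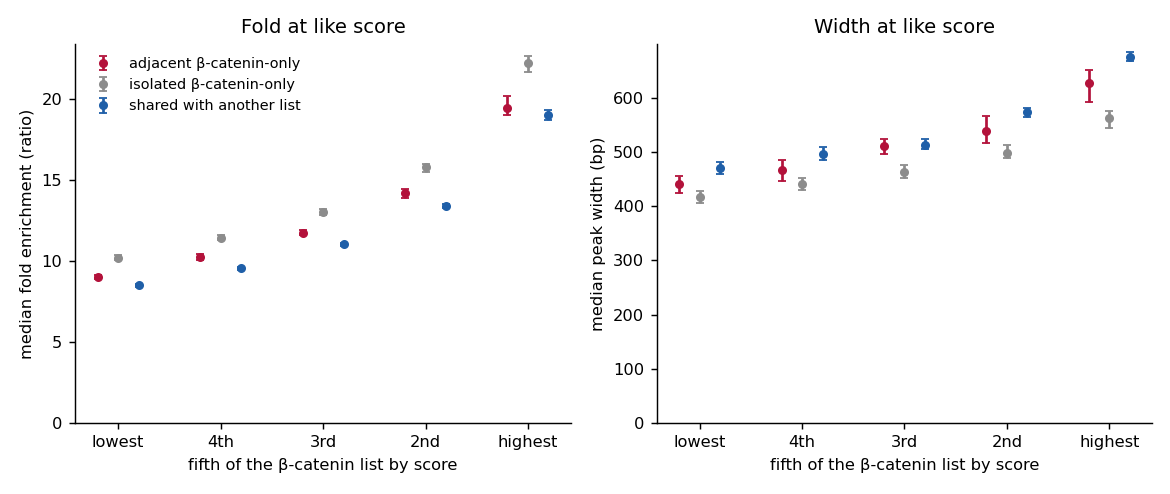
Median fold enrichment (left, ratio) and median peak width (right, bp) of adjacent, isolated and shared β-catenin peaks in 5 equal groups of the β-catenin list by score, from lowest to highest; bars are 95% order-statistic intervals. Within each group the medians of adjacent peaks lie between those of the other classes, with 19.4-fold against 22.2-fold for isolated peaks in the highest group. Over the whole list their median fold was the lowest, at 11.5. The fold intervals of adjacent and shared peaks meet in the highest group. The width intervals of adjacent peaks meet those of another class in all groups but the highest.

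Adjacent peaks were rarer among strong β-catenin peaks than among weak ones. They made up 11.6% (189 of 1631 peaks, exact interval 10.1 to 13.2) of the highest-scoring 10% of the list and 19.3% (314 of 1630, interval 17.4 to 21.3) of the lowest-scoring 10%. Isolated peaks showed the same slope, at 25.8% and 47.6%, and shared peaks the opposite one, at 62.7% and 33.1%. Of the top 100 of the β-catenin list by score, 16 were adjacent peaks (exact interval 9.43 to 24.7), close to the 17.6% of the whole list, against 11.6% of the top 500 and 11.2% of the top 1000, and the highest-scoring of them was second in the whole list.

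The adjacent peaks crowded towards the near end of the allowed distance. The median gap to the nearest peak of another list was 3189 bp (interval 3017 to 3386), with the middle 50% between 1455 and 5809 bp. Within 1000 bp lay 461 adjacent peaks (16.0%, exact interval 14.7 to 17.4), and 1947 (67.7%, interval 66.0 to 69.4) lay within 5000 bp. Per kilobase the number was highest between 1000 and 2000 bp, with 526 peaks, and was 160 between 8000 and 9000 bp and 179 between 9000 and 10000 bp. Only 17 adjacent peaks came within less than 100 bp of a neighbour. Distance chose these peaks, so that the slope is a description of what lies inside the limit.

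**Figure D2:**
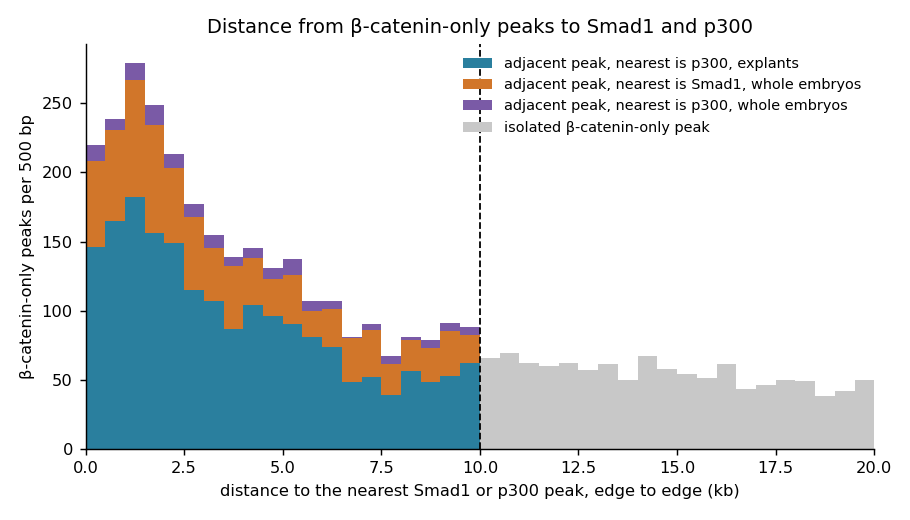
Number of β-catenin-only peaks per 500 bp (vertical axis) by the edge-to-edge distance to the nearest Smad1 or p300 peak in kb (horizontal axis), stacked by the list of that nearest peak; the dashed line is the limit of 10 kb, beyond which peaks count as isolated (grey, shown to 20 kb). The numbers are highest between 1000 and 2000 bp, with 526 peaks, and lower farther out, with 179 peaks in the last kilobase inside it and 135 in the first kilobase outside.

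Peaks on either side of the limit had overlapping intervals of fold and width. The 179 adjacent peaks between 9000 and 10000 bp had a median fold of 11.9 (interval 11.2 to 12.4) and a median width of 519 bp (interval 473 to 551), and the 135 isolated peaks between 10000 and 11000 bp had a median fold of 11.7 (interval 11.2 to 12.8) and a median width of 472 bp (interval 421 to 520). The outermost adjacent peaks lay on chromosome 8L from 2832217 to 2832735 (17.0-fold, 9999 bp from a whole-embryo p300 peak), on chromosome 4L from 87626538 to 87627337 (13.8-fold, 9998 bp from explant p300) and on chromosome 7L from 112389891 to 112390453 (12.1-fold, 9997 bp from explant p300). The first isolated peaks beyond the limit lay on chromosome 9_10S from 42951438 to 42951764 (9.45-fold, 10002 bp from Smad1), on Scaffold44 from 1383916 to 1384228 (7.07-fold, 10034 bp from explant p300) and on chromosome 6S from 26259876 to 26260208 (12.9-fold, 10038 bp from explant p300). Inside the limit, fold hardly changed with distance: it was 11.02 (interval 10.6 to 11.8) for the 91 peaks within 250 bp and 11.9 between 9000 and 10000 bp, and across the 2875 peaks Spearman's rho was 0.0686. Among isolated peaks the median fold was 11.96 (interval 11.7 to 12.2) from 10 to 20 kb and 13.2 (interval 13.0 to 13.4) beyond 100 kb, at a median −log10 p of 117 and 115.

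Explant p300, the longest of the 3 other lists, was the most frequent neighbour. The nearest peak was explant p300 for 1910 adjacent peaks (66.4%, exact interval 64.7 to 68.2), Smad1 for 812 (28.2%, interval 26.6 to 29.9) and whole-embryo p300 for 153 (5.32%, interval 4.53 to 6.21). For 3 peaks a pair of lists was equally near, and the first in the order Smad1, explant p300, whole-embryo p300 was taken. The median gap was 3168.5 bp to explant p300, 3166 bp to Smad1 and 3618 bp (interval 2795 to 4421) to whole-embryo p300, and the median fold of the adjacent peaks differed little by neighbour, at 11.5, 11.4 and 11.7.

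Many adjacent peaks had several lists within reach. Within 10 kb, 2386 (83.0%, interval 81.6 to 84.3) had an explant p300 peak, 1692 (58.9%, interval 57.0 to 60.7) a Smad1 peak and 944 (32.8%, interval 31.1 to 34.6) a whole-embryo p300 peak. Explant p300 alone was near 937 adjacent peaks, Smad1 with explant p300 near 654, and peaks of all 3 other lists near 646. Smad1 alone was near 340, both p300 lists without Smad1 near 149, whole-embryo p300 alone near 97, and Smad1 with whole-embryo p300 near 52. Adjacent peaks with all 3 lists nearby had a median fold of 10.97 (interval 10.8 to 11.4), and those with explant p300 alone had 11.8 (interval 11.6 to 12.1). Counting overlapping peaks of the 3 lists as 1 site, 1724 adjacent peaks (59.97%, interval 58.1 to 61.8) had 1 such site within 10 kb, 670 had 2, 315 had 3 and 166 had 4 or more. Sites lay on both sides of 638 adjacent peaks (22.2%, interval 20.7 to 23.8).

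The sites next to adjacent peaks were often β-catenin sites themselves, as were many peaks of the whole Smad1 and p300 lists. The choice of the peaks did not ask for β-catenin at the neighbour. It is tied to it, however, since a shared β-catenin peak nearby brings a Smad1 or p300 peak with it. Counted by peak, the nearest neighbour of another list overlapped a β-catenin peak for 1437 of the 2875 (49.98%, exact interval 48.1 to 51.8). The share was 61.6% (500 of 812, interval 58.1 to 64.9) where the nearest peak was Smad1, against 63.1% (interval 62.1 to 64.2) of all Smad1 peaks. It was 47.4% (906 of 1910, interval 45.2 to 49.7) where the nearest peak was explant p300, against 38.9% (interval 38.1 to 39.7) of all explant p300 peaks. It was 20.3% (31 of 153, interval 14.2 to 27.5) where it was whole-embryo p300, against 47.99% (interval 46.5 to 49.5) of that list. Counted by site, the nearest one overlapped a β-catenin peak for 1438 of the 2875 (interval 48.2% to 51.9%). Of all sites of the 3 other lists, 37.1% did so (7358 of 19832, interval 36.4 to 37.8). The nearest site held peaks of all 4 lists for 306 adjacent peaks (10.6%, interval 9.54 to 11.8), against 7.58% (1504 of 19832, interval 7.22 to 7.96) of all sites of the 3 other lists. These shares were set side by side without a test, since the distance limit and the choice of the nearest edge favour neighbours of certain kinds. They also count adjacent peaks, so that a neighbour of several counts more than once, whereas the whole lists count each peak once. Counted once each, 434 of 705 nearest Smad1, 772 of 1680 explant p300 and 27 of 130 whole-embryo p300 peaks overlapped β-catenin. The 2875 adjacent peaks had 2498 distinct nearest sites. Whole-embryo p300 peaks were narrow (median 118 bp, against 383 bp for Smad1 and 411 bp for explant p300). Where lists overlapped, a wider peak could therefore be the nearest. The nearest site held whole-embryo p300 alone at 146 adjacent peaks, so that the 20.3% cannot be compared with the 47.99% of the whole list.

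The Smad1 and explant p300 neighbours were close in strength to the rest of their lists, and the whole-embryo p300 neighbours had a somewhat lower median fold. The 705 Smad1 peaks that were nearest to an adjacent peak had a median fold of 8.24 (interval 8.01 to 8.45), against 8.35 (interval 8.26 to 8.41) for the other 7271 Smad1 peaks, and 48.5% of them were in the higher-scoring 50% of the list. The 1680 nearest explant p300 peaks had a median fold of 8.03 (interval 7.90 to 8.12), against 8.04 (interval 8.003 to 8.08) for the other 13466, and 50.2% of them were in the higher-scoring 50%. The 130 nearest whole-embryo p300 peaks had a median fold of 5.11 (interval 4.94 to 5.44), against 5.41 (interval 5.34 to 5.44) for the rest of that list, and 40.8% (interval 32.2 to 49.7) were in the higher-scoring 50%. Of these 130, 103 lay without β-catenin, against 2266 of the other 4425. Without β-catenin the medians were 5.03 (interval 4.89 to 5.44) and, for the rest, 5.22 (interval 5.03 to 5.27). On β-catenin they were 5.23 (interval 4.78 to 5.96) and 5.44 (interval 5.44 to 5.52), so that the intervals met in both splits. The fold of an adjacent peak did not follow that of its neighbour: Spearman's rho was -0.0371 over 812 pairs with Smad1 and 0.0252 over 1910 pairs with explant p300, where pairs can share a neighbour.

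Where the nearest site carried β-catenin too, the adjacent peak was more often the weaker of the pair. Each partner was a shared peak, and shared peaks scored higher as a class (median −log10 p 145, against 118 for adjacent peaks). The shares below therefore do not describe neighbouring pairs in particular. Of the 1437 pairs, the adjacent peak had the higher score in 523 (36.4%, exact interval 33.9 to 38.9) and the higher fold in 625 (43.5%, interval 40.9 to 46.1). Its median fold in these pairs was 11.5, against 12.6 for the β-catenin peak on the neighbour, and its median width was 518 bp, against 592 bp. The median log2 ratio of the folds was -0.12 (interval -0.16 to -0.07), and the ratio reached 4 in 2 pairs in favour of the adjacent peak and in 4 pairs in favour of its partner. The share of pairs in which the adjacent peak scored higher was 36.5% (interval 30.7 to 42.6) within 1000 bp. It was 33.8% (interval 29.6 to 38.2) from 1000 to 3000 bp and 38.2% (interval 34.6 to 42.0) from 3000 to 10000 bp. The pairs rest on 1217 partner peaks, so that some partners were counted more than once.

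**Figure D3:**
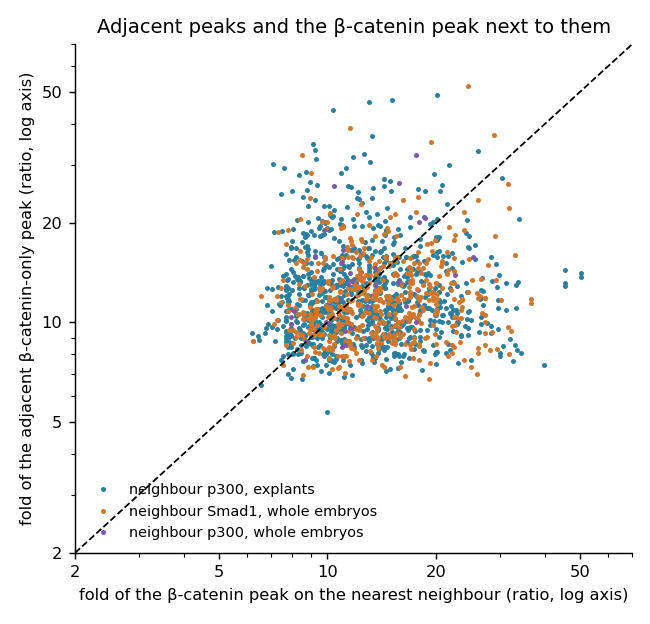
Fold enrichment (ratio, log axes) of 1437 adjacent peaks (vertical) against that of the β-catenin peak overlapping their nearest Smad1 or p300 neighbour (horizontal), coloured by the list of the neighbour; the dashed line marks equal folds. Points lie on both sides of the line, with 625 above it, and show no visible trend.

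The 10 adjacent peaks with the highest scores had 24.0-fold to 48.9-fold β-catenin enrichment and ranked between 2 and 71 in the whole β-catenin list. The first, on chromosome 4L from 130282956 to 130284347 (46.7-fold), lay 1530 bp from an explant p300 peak of 7.55-fold, which overlapped a 13.0-fold β-catenin peak, and had no Smad1 peak within 10 kb. The one ranked next was on chromosome 3L from 119545689 to 119547056 (47.3-fold), 567 bp from an explant p300 peak of 8.21-fold that overlapped a 15.1-fold β-catenin peak, again with no Smad1 peak within 10 kb. Both had more than 3 times the β-catenin fold of the site with p300 next to them; they were chosen for high scores, and over all pairs described above the adjacent peak was more often the weaker.

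The next ranks showed different surroundings. On chromosome 8S, the peak from 37097696 to 37098418 (35.3-fold) lay 2029 bp from a 27.5-fold Smad1 peak, one far above the Smad1 median of 8.31, which overlapped a 19.3-fold β-catenin peak, and 14.0-fold explant p300 lay at the same site. On chromosome 2S, the peak from 128672530 to 128674045 (36.5-fold) had no explant p300 and no Smad1 peak within 10 kb, and a single whole-embryo p300 peak of 4.57-fold at 4846 bp made it adjacent. On chromosome 1L, the peak from 210140380 to 210141306 (37.1-fold) lay 396 bp from a site with all 4 lists, where β-catenin reached 28.9-fold, Smad1 14.6-fold, explant p300 8.34-fold and whole-embryo p300 5.03-fold. On chromosome 2L, the peak from 54164986 to 54166440 (27.6-fold) had 2 peaks of each other list within 10 kb, the nearest at 6364 bp.

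Of the remaining 4 peaks, that on chromosome 6S from 7021690 to 7022878 (27.8-fold) had no other β-catenin peak within 10 kb, and a single explant p300 peak of 7.08-fold lay 5692 bp away without β-catenin. The peak on chromosome 1S from 116942269 to 116943290 (33.3-fold) lay 4175 bp from a 10.4-fold explant p300 peak that overlapped β-catenin at 9.26-fold. The peak on chromosome 1L from 23454579 to 23455445 had the highest fold of the 10, at 48.9, and lay near the limit, 9470 bp from a 15.3-fold explant p300 peak. The peak on chromosome 7L from 21872980 to 21873519 (24.0-fold) was also the narrowest of the 10, at 540 bp, and had 3 Smad1 and 3 explant p300 peaks within 10 kb. Across the 10, the list of the nearest peak was explant p300 at 5, Smad1 at 3 and whole-embryo p300 at 2.

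**Figure D4:**
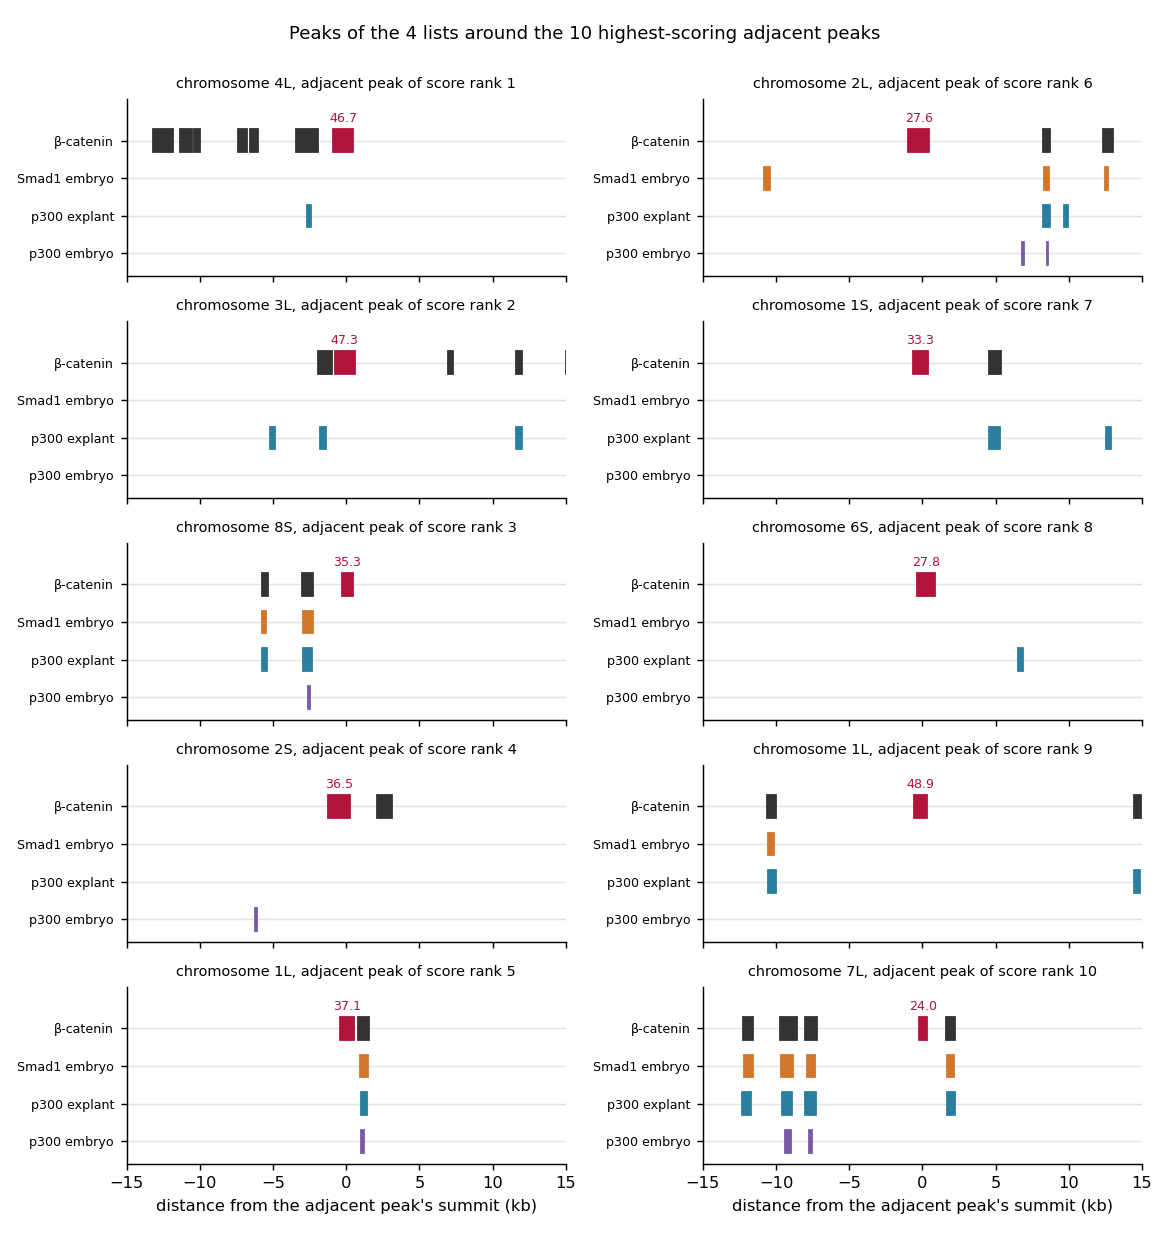
Peaks of the 4 lists (rows, drawn to scale) within 15 kb of the summits of the 10 highest-scoring adjacent peaks; the horizontal axis is the distance from the summit in kb, the adjacent peak is red with its β-catenin fold above it, and other β-catenin peaks are black. No Smad1 or p300 peak touches a red peak, by choice, and in 7 of the 10 maps the nearest neighbour overlaps a β-catenin peak.

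Some further peaks were named for their neighbours. Beside a site with all 4 lists, the highest-scoring adjacent peaks were those on chromosomes 8S and 1L described above and one on chromosome 9_10S from 37098768 to 37099316. This last peak had 44.2-fold β-catenin enrichment and lay 3748 bp from a site with 10.4-fold β-catenin, 14.9-fold explant p300, 8.28-fold Smad1 and 6.53-fold whole-embryo p300 enrichment. Next to whole-embryo p300 the leading adjacent peaks were those on chromosomes 2S and 2L above and one on chromosome 4L from 90519973 to 90521384 (28.7-fold), 3156 bp from a 4.35-fold whole-embryo p300 peak.

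Adjacent peaks often had other β-catenin peaks around them. Another β-catenin peak lay within 10 kb of 1984 adjacent peaks (69.0%, exact interval 67.3 to 70.7), against 1066 isolated peaks (17.4%, interval 16.4 to 18.4) and 3871 shared peaks (53.0%, interval 51.9 to 54.2). The choice by distance raises the share at adjacent peaks, since a shared β-catenin peak nearby brings a Smad1 or p300 peak with it. For the same reason it lowers the share at isolated peaks. A shared peak lay within 10 kb of only 4 of the 6131 isolated peaks. The shares of adjacent, isolated and shared peaks therefore cannot be compared. A shared peak was near 1725 adjacent peaks (60%, interval 58.2 to 61.8), another adjacent peak near 830 (28.9%, interval 27.2 to 30.6) and an isolated peak near 107 (3.72%). No other β-catenin peak was within 10 kb of 891 adjacent peaks (31.0%, interval 29.3 to 32.7), which were narrower than the others, with a median width of 477 bp (interval 462 to 491) against 517 bp (interval 508 to 528).

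Adjacent peaks within 10 kb of each other formed 356 groups, which held 830 of them, while 2045 stood alone. Of the groups, 275 had 2 adjacent peaks, 56 had 3, 19 had 4 and 6 had 5 or more. The largest spanned 19449 bp on chromosome 4L from 130264899 to 130284347 and held 7 adjacent peaks of 8.81-fold to 46.7-fold, the last of them the adjacent peak with the highest score. In that stretch and the 10 kb on either side lay 9 β-catenin peaks, 2 explant p300 peaks, 1 Smad1 peak of 7.40-fold and no whole-embryo p300 peak. A group of 6 on chromosome 2S from 128840768 to 128866227 had 1 strong adjacent peak of 27.2-fold and 5 between 7.43-fold and 10.1-fold. Counted over the same reach, there were 11 β-catenin peaks, the 6 of the group included, 4 Smad1 and 3 explant p300 peaks. A group of 6 on chromosome 2L from 148400780 to 148419594 was more even, from 7.12-fold to 15.5-fold. Its reach held 12 β-catenin peaks, again with its own 6 included, 3 Smad1, 2 explant p300 and 1 whole-embryo p300 peaks. The strongest of these Smad1 peaks was at 15.7-fold.

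Adjacent peaks were found on all 18 chromosomes and on 45 unplaced scaffolds. Xenopus laevis is allotetraploid and has an L and an S version of every chromosome, inherited from different ancestors. Of the 2753 adjacent peaks on named chromosomes, 61.2% (exact interval 59.4 to 63.0) lay on L chromosomes, against 58.3% (interval 57.0 to 59.6) of isolated and 60.5% (interval 59.3 to 61.6) of shared peaks. They made up 18.4% (interval 17.6 to 19.2) of the β-catenin peaks on L and 17.4% (interval 16.5 to 18.4) of those on S chromosomes. By chromosome the share ran between 14.4% on 2S (108 of 751 peaks, interval 11.9 to 17.1) and 20.6% on 8L (187 of 908, interval 18.0 to 23.4). The pair 2 had shares of 18.5% (interval 16.3 to 21.0) on 2L and 14.4% on 2S, while on pair 5 the order was turned, at 14.5% (interval 12.3 to 16.8) on 5L and 18.6% (interval 15.7 to 21.8) on 5S. On unplaced scaffolds the share was 11.97% (122 of 1019, interval 10.04 to 14.1). A neighbour had to lie on the same chromosome or scaffold, which can lower the share on short scaffolds. In all, 250 isolated peaks had no Smad1 or p300 peak on theirs. The median fold of adjacent peaks was 11.3 (interval 11.1 to 11.5) on L and 11.8 (interval 11.5 to 12.1) on S chromosomes.

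**Figure D5:**
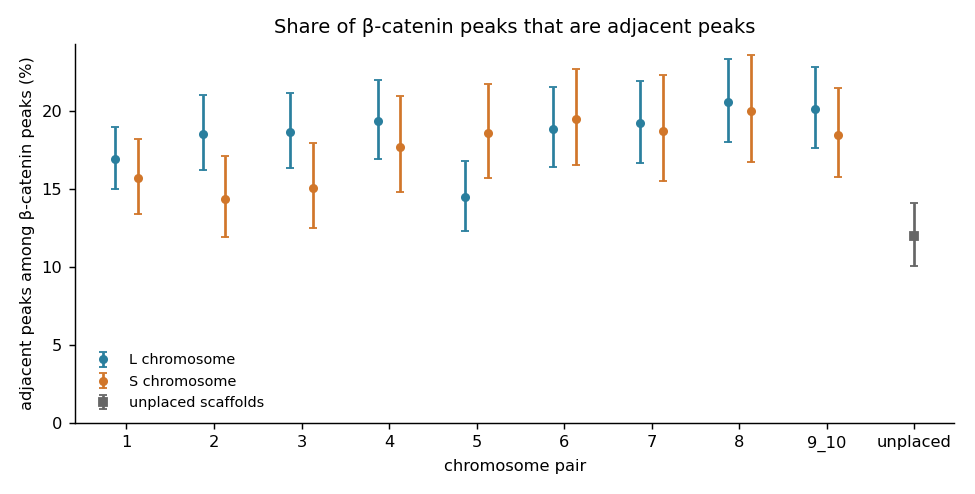
Share of β-catenin peaks that were adjacent peaks (vertical axis, %) on each chromosome pair (horizontal axis), for L chromosomes, S chromosomes and unplaced scaffolds; bars are exact 95% intervals. The shares on named chromosomes lie between 14.4% on 2S and 20.6% on 8L, and unplaced scaffolds are lowest at 11.97%.

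Whether adjacent peaks lay on weaker Smad1 or p300 calls that were not listed could be read in part from the numbers in the peak names, which rise along each chromosome and scaffold. These run to 31255 for Smad1 and 96602 for explant p300, far above the number of listed peaks, and are taken here as running numbers of all calls, which no source states. Of the 2823 adjacent peaks with a listed Smad1 peak on both sides, 196 (6.94%, exact interval 6.03 to 7.94) had consecutive numbers on the 2 sides, so that no numbered Smad1 peak was left out between them, against 111 of 5695 isolated peaks (1.95%, interval 1.61 to 2.34). For explant p300 this was so for 56 of 2847 adjacent peaks (1.97%, interval 1.49 to 2.55), against 11 of 5775 isolated peaks. The stretch between the listed peaks was shorter at adjacent peaks, since adjacent peaks were chosen for a near neighbour, with a median of 224 kb against 856 kb at isolated peaks for Smad1 and 66.3 kb against 434 kb for explant p300, so that these shares of the 2 classes cannot be compared. Per 100 kb of this stretch the median was 1.54 unlisted Smad1 numbers at adjacent peaks and 0.761 at isolated peaks. For explant p300 it was 8.02 and 3.04. Pooled over the peaks of each class, the numbers per 100 kb lay closer together, at 0.949 and 0.651 for Smad1 and 3.81 and 2.39 for explant p300. The length of the stretch follows from the same choice by distance, and peaks near each other can share a stretch. The rates of the 2 classes therefore cannot be compared either. The names do not tell where in the stretch an unlisted call lay. Consecutive numbers in both lists, which a long stretch makes less likely, were found at 8 of the 2813 adjacent peaks flanked in both (0.284%, exact interval 0.123 to 0.560). The highest-scoring of these, on chromosome 2S from 128844453 to 128847119 (27.2-fold), is the strong peak of the group of 6 described above, and the next lay on chromosome 3L from 120006334 to 120007397 (21.3-fold).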

How the data were processed

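The files were 4 peak lists. Per the submitters' processing notes the tools were MACS2, Bowtie2, SAMtools, Picard, Trimmomatic and FastQC, with no version or role stated. No genome build is given in the sources used here, nor are the settings of the IDR (irreproducible discovery rate) that 3 list titles mention. The deposited lists give each peak a score, a fold (a ratio of pileup over local background) and a −log10 p-value, as the authors made them. The score is 10 times the −log10 p, except in the whole-embryo p300 list, where it is 10 times the −log10 q. In that list 172 repeated lines were merged, and 14 lines without a summit were given the midpoint.

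Positions are printed counted from 1, and a gap of up to 10000 bp between edges counted as near. Intervals of shares are exact (Clopper-Pearson), and those of medians come from binomial order statistics, at 95%. Classes were computed with Python 3.11.15, pandas 2.3.3 and SciPy 1.17.1 and checked on simulated lists and with bedtools. Peaks were named by rule: the 10 highest scores among adjacent peaks, the 3 highest by list of the nearest peak and beside sites with all 4 lists, the 3 largest groups, and 3 peaks on each side of the limit. The class of peaks, these rules and the lists compared were chosen with earlier results of these data known. No gene or sequence is named, because the RefSeq gene table at hand names an assembly that the lists do not name.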

Additional observations from a re-analysis of the deposited data

How the results depend on the processing

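The results were recomputed under other settings, which gave 45 values. Of these, 29 stayed within the interval of the reported value, or within 1.5 times a reported count, and 16 moved. With a limit of 5 kb the number of adjacent peaks was 1947, their median fold 11.3, the share whose nearest neighbour overlapped β-catenin 52.2%, and the shares with Smad1 and explant p300 within the limit 55.1% and 81.3%. With a limit of 20 kb there were 3971, and these shares were 47.7%, 61.8% and 85.7%. Keeping the higher-scoring 50% of each list left 1162 of 8151 β-catenin peaks, with a median fold of 14.6 and shares of 55.9% with Smad1 and 80.3% with explant p300; fewer and stronger peaks enter by construction. Without the whole-embryo p300 list there were 2839 adjacent peaks, and the 3 shares were 52.0%, 61.3% and 85.9%. Requiring an overlap of 50% of the shorter peak gave 2880. The share with no unlisted Smad1 number was 8.60% where both flanking peaks lay within 1 Mb, and that for explant p300 was 1.47% in the higher-scoring 50% of the adjacent peaks. No paired analysis was possible because each group held 1 library and the lists pool libraries.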

Other observations

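The peaks in this paragraph were chosen after their values were seen. The most crowded surroundings held 7 Smad1 or p300 sites within 10 kb, at 5 adjacent peaks. Of these, 3 lay together on chromosome 1S between 141045233 and 141051865, with β-catenin folds of 10.1, 14.7 and 11.99, and the site nearest to the first pair had 21.1-fold Smad1 enrichment. The others lay on chromosome 4S from 41935175 to 41935689 (10.9-fold, with 5 Smad1, 6 explant p300 and 3 whole-embryo p300 peaks around it) and on chromosome 8S from 25565781 to 25566434 (11.96-fold, with 2, 7 and 3). The adjacent peak with the shortest gap, on chromosome 5L from 72747846 to 72748493 (13.7-fold), lay 21 bp from an 8.52-fold explant p300 peak. The highest fold of any adjacent peak, 52.3, was on chromosome 6L from 2704026 to 2704479, 3184 bp from a 9.94-fold Smad1 peak.

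The summits of adjacent peaks did not lean towards the neighbour. The summit lay on the side of the peak's middle that faced the nearest Smad1 or p300 peak in 106 of 219 peaks within 500 bp (48.4%, exact interval 41.6 to 55.2) and in 1478 of 2870 overall (51.5%, interval 49.7 to 53.3), leaving out 5 peaks with the summit at the exact middle.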
